A study of Rattus norvegicus with 10 samples.

Results

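Trimethylation of lysine 4 on histone H3 (H3K4me3) was mapped in RCS cells, a line from a rat chondrosarcoma, by chromatin immunoprecipitation with sequencing (ChIP-seq). The 23116 intervals described here are all the peaks that the authors deposited for the H3K4me3 library (antibody ab8580, Abcam), out of 252939 peaks in the 6 lists of the series. The library is 1 of 6 immunoprecipitations, and its background is the input library, made without an antibody, that it shares with the H3K4me1 and H3K9me3 libraries. The labels name no treatment, genotype or replicate, so all values come from 1 H3K4me3 and 1 input library of 1 cell line. There is no replicate error and no test between conditions. Ranges in brackets after a share are Wilson 95% intervals. They hold only the error of counting, treat peaks as independent, and so are too narrow.

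H3K4me3 is written mainly by the SET1 and MLL families of methyltransferase complexes. It sits on the nucleosomes that flank active or poised transcription start sites, above all at CpG islands, and it is read by proteins of the transcription and chromatin remodelling machinery. Broad H3K4me3 domains are known from genes that define a cell's identity, and weak, narrow signal is known from enhancers and weakly used promoters. Because an annotation of the files' build (rn5) was not used here, no peak was assigned to a gene or a promoter, and the identity of the cells was not checked against markers. Positions are on rn5, counting from 1.

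The peaks fell into a large group at the top of the deposited score and a broad spread below it. The score is the value deposited with each peak, on a scale that no label or header states. It ran from 50.4 to 3233 with a median of 1674 and a lower quartile of 231. A score of 3100 or more was held by 9833 peaks, or 42.5% (41.9% to 43.2%), called upper peaks below. Of these, 9687 had exactly 3100, so the score does not order them. Whether this shared value is a limit of the score or a level of signal was not tested, so the upper peaks need not be a class of their own. The 11558 peaks below the median score are called lower peaks, and by this cut they are 50% of the list. The remaining 1725 peaks, 7.46%, scored from the median to under 3100 and are called middle peaks. Their share is what the cut and the upper share leave, and is not a separate result. From a score of 400 upward, classes of equal step thinned out: 2002 peaks scored 400 to under 800, 598 scored 1600 to under 2000 and 441 scored 2400 to under 2800. At the edges of the groups, the last peak below the median scored 1673 and the first above it 1674. The highest score below 3100 was 3098, so no empty interval separates the upper peaks from the rest.

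**Figure D1:**
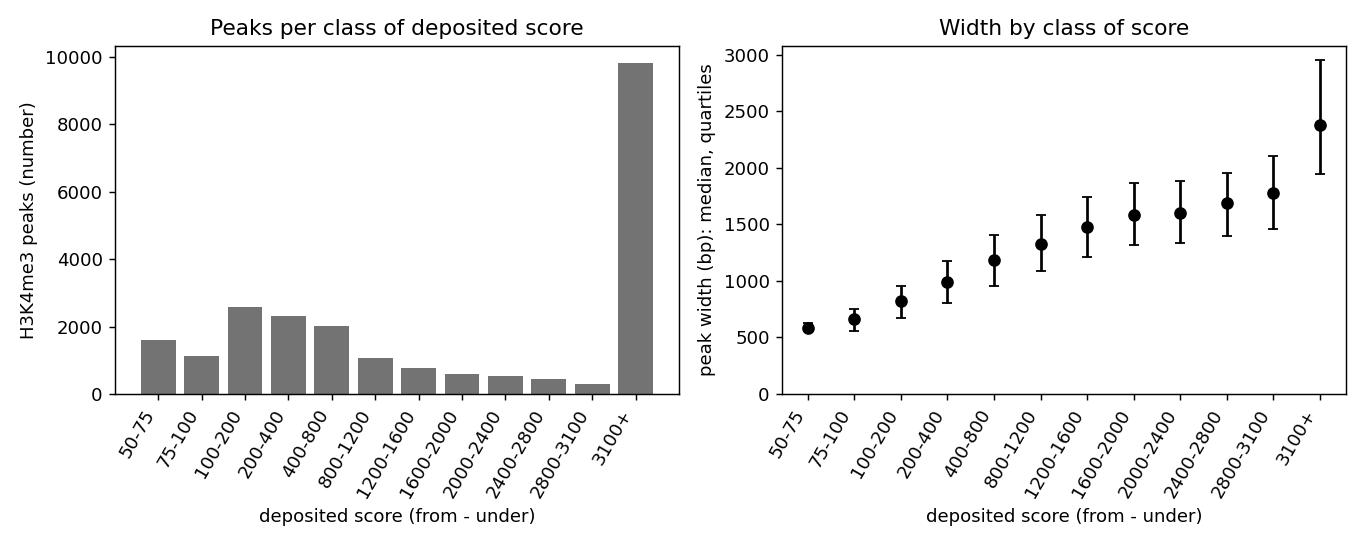
Number of H3K4me3 peaks (left, bars) and peak width in bp (right, points are medians and bars the quartiles) in classes of the deposited score, which have uneven steps. The 9833 peaks at 3100 or more outnumber every other class, and median width goes from 587 bp in the lowest class to 2383 bp in the highest.

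Upper peaks were broader than lower peaks, and the widths of the groups overlapped in part. Median width was 2383 bp (quartiles 1947 and 2960 bp) for upper peaks, 1640 bp (1358 and 1926 bp) for middle peaks and 897 bp (652 and 1208 bp) for lower peaks. The ratio of the upper to the lower median was 2.66. Of the lower peaks, 297 (2.57%) were wider than the lower quartile of the upper peaks. Of the upper peaks, 157 (1.60%) were narrower than the upper quartile of the lower peaks. The groups did meet between these quartiles: widths of 1500 to under 1750 bp were held by 867 upper and 687 lower peaks. A width under 1 kb was found in 59.4% of lower and 0.559% of upper peaks, and a width of 2 kb or more in 2.19% and 72.2%. The upper peaks held 64.2% of all base pairs under H3K4me3 peaks (25.5 of 39.6 Mb) and the lower peaks 28.4% (11.3 Mb). Score and width come from the same peak calls on the same library, so neither is independent evidence for the other.

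Below the shared value of 3100, width followed the score from class to class. Median width was 587 bp at scores of 50 to under 75, 995 bp at 200 to under 400, 1476 bp at 1200 to under 1600 and 1777 bp at 2800 to under 3100. Spearman's rho between score and width was 0.775 across these 13283 peaks, which are sites of 1 library and not replicates. The 146 peaks that scored above 3100 did not continue this order by score. Since the scale is not stated, a score above 3100 need not mark a stronger peak than one of exactly 3100. Their median width was 1734 bp (1509 and 2067 bp), close to that of the highest class below 3100, against 2394 bp (1959 and 2970 bp) for the peaks at exactly 3100.

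**Figure D2:**
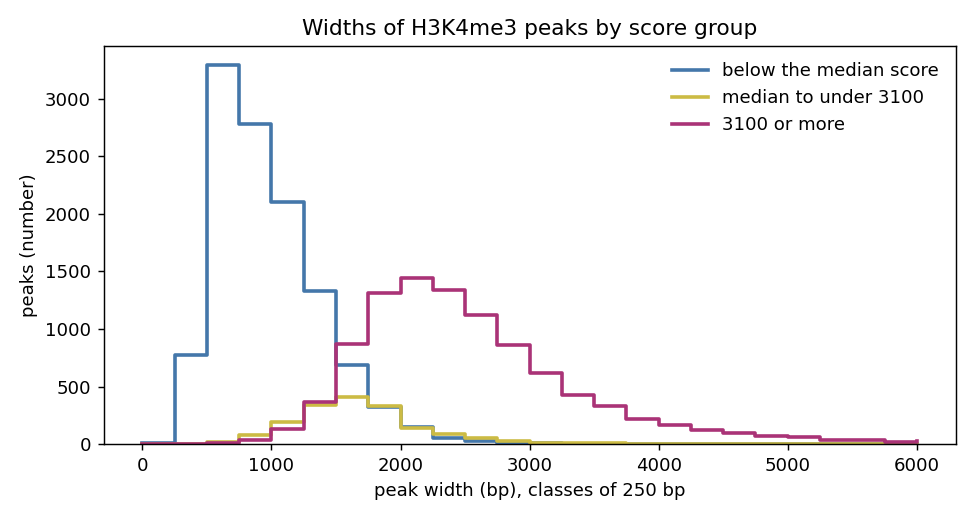
Number of peaks per 250 bp class of width, for peaks below the median score, from the median to under 3100 and at 3100 or more, with the few wider peaks beyond the right end not shown. The lower and upper groups peak apart, at medians of 897 and 2383 bp, and the small middle group lies between them at 1640 bp.

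The broadest upper peaks reached beyond 12 kb. The widest of all lay at chr4:232960962-232975254 and spanned 14293 bp. It was followed by 13148 bp at chr7:126265907-126279054, 12949 bp at chr18:79979816-79992764, 12882 bp at chr7:44786614-44799495 and 12864 bp at chr3:167059414-167072277. The second of these had another peak at 236 bp on one side and at 851 bp on the other. All 5 scored 3100, so width separates peaks that the score leaves tied. In all, 744 upper peaks, or 7.57%, were 4 kb or wider, compared with 4 middle peaks and 1 lower peak. That lower peak, at chr11:19509592-19515351, spanned 5760 bp at a score of 1584. The next widest lower peaks measured 3846 bp (chr1:100133420-100137265, score 1240), 3596 bp (chr11:61301548-61305143, score 955), 3529 bp (chr7:60220432-60223960, score 1223) and 3475 bp (chrX:39064318-39067792, score 852).

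Most of the peaks with the highest deposited score were narrower than the median upper peak of 2383 bp. Whether they are the strongest peaks of the list cannot be told from a score of unstated scale. Of 8 peaks tied at 3233, the first 5 by position were a 704 bp peak at chr6:74320003-74320706 and peaks of 2110 bp at chr9:10092219-10094328, 1777 bp at chr10:35397066-35398842, 2003 bp at chr10:36093379-36095381 and 2217 bp at chr13:80073672-80075888. In all, 7 of the 8 were narrower than the median upper peak, and the other, at chr19:36872881-36877880, spanned 5000 bp. Only the 704 bp peak was narrower than the median of the whole list, 1509 bp.

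Spacing differed less between the groups than width did. The gap from the edge of a peak to the nearest other peak had a median of 17672 bp (quartiles 5723 and 40705 bp) for upper and 16643 bp (3444 and 52337 bp) for lower peaks. The order of these medians turned when peaks under a score of 100 were left out (20070 bp for upper, 20291 bp for lower peaks) and when peaks up to 500 bp apart were first joined (19655 and 21931 bp). The gaps of lower peaks were spread further at both ends. Their 10th and 90th percentiles were 317 and 130890 bp, against 1257 and 81539 bp for upper peaks. Another peak lay within 1 kb of 15.6% of lower peaks (14.98% to 16.3%) and of 9.06% of upper peaks (8.51% to 9.64%). No other peak lay within 100 kb of 13.5% of lower peaks (12.9% to 14.1%) and of 7.09% of upper peaks (6.60% to 7.61%). Lower peaks were thus the more crowded and also the more isolated of both groups. When only peaks of the same group were counted, the median gap was 37935 bp among upper and 37431 bp among lower peaks.

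Most close neighbours involved a lower peak. Consecutive peaks with no more than 1 kb between their edges, called close pairs here, numbered 1520 of 23095. Of these, 613 joined an upper and a lower peak, which is 40.3% (37.9% to 42.8%), and 590 joined lower peaks, or 38.8% (36.4% to 41.3%). Only 115, or 7.57% (6.34% to 9.005%), joined upper peaks, and the remaining 202 included a middle peak. Most consecutive pairs at any distance also involved a lower peak: of all 23095, 8648 joined an upper and a lower peak and 6373 joined lower peaks. Upper peaks did follow each other often, in 4786 consecutive pairs, but 2.40% of those (2.01% to 2.88%) were close. The same share was 7.09% (6.57% to 7.65%) for an upper beside a lower peak and 9.26% (8.57% to 9.99%) for lower beside lower peaks.

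**Figure D3:**
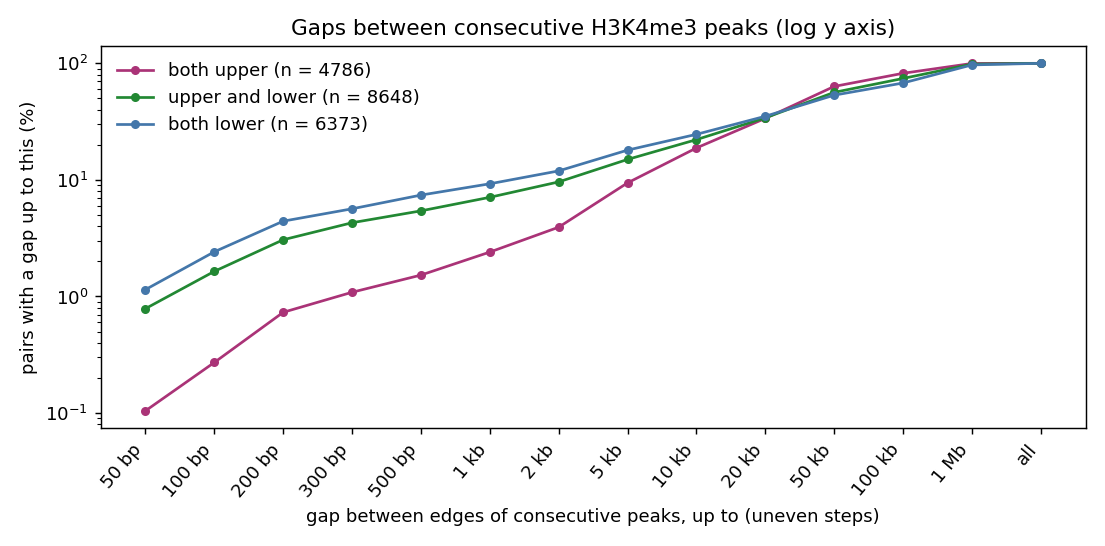
Cumulative share of consecutive peak pairs (log y axis, percent) by the gap between their edges (x axis, uneven steps from 50 bp upward), for pairs of upper peaks, of lower peaks and of an upper with a lower peak. Up to 10 kb the line for pairs of upper peaks is lowest, with 2.40% at 1 kb against 9.26% for lower pairs.

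Within close pairs the gaps were short. No peaks overlapped and the shortest gap was 1 bp. Of all gaps, 659 were of up to 200 bp, 391 of over 200 to 400 bp, 202 of over 400 to 600 bp and 128 of over 800 to 1000 bp. The median gap was 222 bp in close pairs of lower peaks, 232 bp in mixed pairs and 353 bp in pairs of upper peaks. The medians of 222 and 232 bp are of the order of a nucleosome with its linker. They depend on the limit of 1 kb, and the quartiles lie far apart (96 and 427 bp for lower, 115 and 478 bp for mixed pairs). A relation to nucleosomes was not tested. Whether a close pair is 1 domain called in pieces was not tested, since the files hold no signal between peaks. The 3 closest pairs of upper peaks were chr16:82747816-82749671 with a peak of 905 bp after a gap of 6 bp, chr16:749312-751621 with a peak of 4613 bp after 16 bp, and chr10:55383965-55387153 with a peak of 3129 bp after 17 bp.

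In the mixed pairs a narrow, low-scoring peak stood beside a broad one. This follows largely from the score groups, whose median widths over all peaks were 2383 bp for upper and 897 bp for lower peaks. The upper member had a median width of 2279 bp and the lower member 745 bp, with a median score of 160, and in 8 of the 613 pairs the lower member was the wider. The lower peak came first along the chromosome in 321 pairs and second in 292. Seen from the lower peaks, 612 lay within 1 kb of an upper peak, which is 5.30% (4.90% to 5.72%), and 4192 lay more than 100 kb from any, which is 36.3% (35.4% to 37.2%). The adjacent ones were the narrowest and lowest-scoring, at a median of 743 bp and 159. Those 1 to 5 kb away had 908 bp and 209, and those beyond 100 kb had 896 bp and 229. Past 1 kb, then, the lower peaks had much the same width at every distance from an upper peak, with medians of 896 to 927 bp.

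Longer runs of close peaks were few, and most often held a single upper peak. Peaks joined over gaps of up to 1 kb gave 20217 single peaks and 1379 runs, which held 2899 peaks (12.5%). Runs of 3 or more numbered 126. Of these, 67 had exactly 1 upper peak, 20 had more and the others had none. The run with most peaks, 6 in 10.8 kb at chr7:11566900-11577669, had an upper peak of 5407 bp near its middle. On its left were peaks of 602 and 963 bp, with scores of 67.7 and 2819, and on its right peaks of 1131, 579 and 455 bp, with scores of 946, 53.9 and 198. The next run, 5 peaks at chr19:36859929-36880854, was of another kind: 3 upper peaks of 4714, 5492 and 5000 bp stood among lower peaks of 1798 and 2264 bp, and peaks covered 19268 of its 20926 bp. Runs of 4 peaks lay at chr1:95704275-95713176 and chr1:258375388-258384036, each with 1 upper peak, and at chr1:13517296-13520940, which held lower peaks only.

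On the scale of 1 Mb both groups gathered in the same places, the upper peaks more unevenly. Among 2587 autosomal windows of 1 Mb, 1804 held both groups, 445 held lower but no upper peaks, 88 held upper but no lower peaks and 250 held neither. Spearman's rho between the counts of the groups was 0.684 over these windows, which share the library and the gene and base content of the region. The densest 10% of windows held 39.9% of the upper and 30.0% of the lower peaks. The variance of the count over its mean was 6.10 for upper and 3.66 for lower peaks. The 2 fullest windows adjoined on chromosome 7, with 75 peaks from 12 to 13 Mb (44 upper, 26 lower) and 74 from 11 to 12 Mb (36 upper, 32 lower). The 6-peak run lies in the latter window. Others with many peaks were chromosome 1 from 102 to 103 Mb (63), chromosome 20 from 5 to 6 Mb (60) and chromosome 1 from 81 to 82 Mb (59).

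At the other extreme, a few very long spans held no H3K4me3 peak. The longest on the autosomes were 65.8 Mb at chr4:67505068-133267900, 20.4 Mb at chr2:20293203-40679103, 11.8 Mb at chr19:11644032-23481509, 10.47 Mb at chr6:9675019-20146618 and 7.67 Mb at chr11:3098265-10765068. The other 5 lists together placed 44, 105, 20, 18 and 19 peaks in them. Over all 6 lists, 86 spans of 1 Mb or more held no peak at all, 242 Mb in sum, and the longest, 65.2 Mb on chromosome 4, lies inside the first of these. Whether the spans hold sequence that reads can align to was not tested, since an rn5 sequence was not used here. The windows above leave them out only in part, and densities below are given with and without them.

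The input gives the background against which peak numbers per chromosome can be read. The histone input held 38604970 reads, of which 53.4% aligned, and 16352477 of these had no mismatch. Only reads without a mismatch were used, since on chromosome 11 they were 44.7% and on chromosome 1 66.7% of aligned reads, below the other chromosomes. Chromosome length was taken as the end of the last peak in any of the 6 lists. Per Mb, input reads on the autosomes ranged from 0.687 times the autosomal median on chromosome 15 to 2.03 on chromosome 16. Chromosomes 9 (2.02), 7 (1.88) and 11 (1.59) were also high, and X was at 0.583.

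H3K4me3 peak density varied about as much between autosomes but followed the input only loosely. Upper peaks per Mb ranged from 2.26 on chromosome 15 to 7.63 on chromosome 10, a ratio of 3.38, and lower peaks from 2.81 to 5.98 on the same chromosomes, a ratio of 2.13. Input reads per Mb spanned a ratio of 2.96. Over the 20 autosomes, Spearman's rho between peak density and input was 0.313 for upper (Pearson's r 0.172) and 0.227 for lower peaks (r 0.283), and 0.245 for all peaks (r 0.202). Without chromosomes 9 and 16, whose input is farthest from the median, rho was 0.340 for upper and 0.0815 for lower peaks (r 0.261 and 0.231). With the empty spans of the autosomes (219 Mb) taken out of the lengths, rho was 0.165 for upper and 0.104 for lower peaks (r 0.0395 and 0.0835). The chromosomes share 1 library and its depth, and these values are descriptions. The density of upper peaks was more closely related to that of lower peaks than to input, with rho 0.829 (r 0.820), or 0.668 (r 0.772) outside the empty spans.

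**Figure D4:**
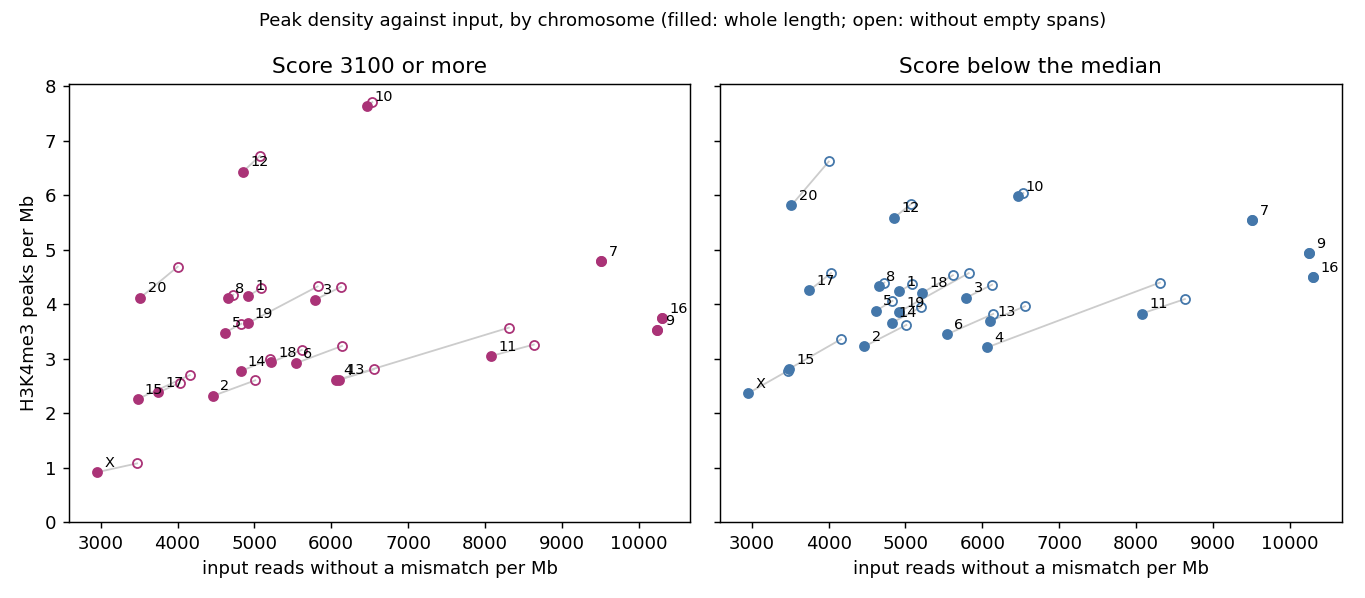
H3K4me3 peaks per Mb against input reads without a mismatch per Mb, for upper (left) and lower peaks (right), 1 point per chromosome, with filled points over the whole length and open points outside the empty spans. Chromosomes 10 and 12 stand highest for upper peaks at middling input, and chromosomes 9 and 16 carry the most input without the most peaks.

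Peaks per input read need no chromosome length. They are the same counts divided by input, so chromosomes with much input rank low where peak number does not rise with it. Chromosomes 20, 12 and 10 had the most H3K4me3 peaks per 1000000 input reads, at 3091, 2624 and 2290. Chromosomes 16, 9 and 11 had the fewest, at 850, 884 and 907. Upper peaks per 1000000 reads ranged from 344 on chromosome 9 to 1325 on chromosome 12, and lower peaks from 436 on chromosome 16 to 1654 on chromosome 20. The high-input chromosomes 16 and 9 carried 337 and 428 upper peaks, and chromosomes 12 and 20, with 264068 and 203185 input reads, carried 350 and 238. Chromosome X had 1326 peaks per 1000000 reads, of which upper peaks made up 311.

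The share of well-scoring peaks that reached 3100 was lowest on X and on chromosome 17, and varied less among the other autosomes. Of the 11558 peaks at or above the median score, 85.1% (84.4% to 85.7%) reached it. The autosomes other than 17 ranged from 81.5% on chromosome 20 (76.7% to 85.5%) to 90.0% on chromosome 12 (86.6% to 92.6%). The intervals of chromosomes 20 and 12 did not overlap. On chromosome 17 the share was 71.0% (65.7% to 75.7%, 220 of 310 peaks), and on X 59.2% (52.9% to 65.2%, 142 of 240). Input per Mb was 0.740 times the autosomal median on chromosome 17 and 0.583 times on X. It was 0.687 times on chromosome 15 and 0.694 times on 20, where 83.8% and 81.5% of peaks reached 3100. Outside the empty spans input stood at 0.705 on chromosome 17, 0.727 on 15, 0.700 on 20 and 0.607 on X. Spearman's rank correlation between this share and input per Mb was 0.421 (r 0.347) over the 20 autosomes and 0.332 (r 0.289) without chromosome 17. The upper peaks of chromosome 17 were also the widest of any autosome, at a median of 2602 bp against 2206 bp on chromosome 12, the narrowest. The part of the input level in these shares was not tested.

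**Figure D5:**
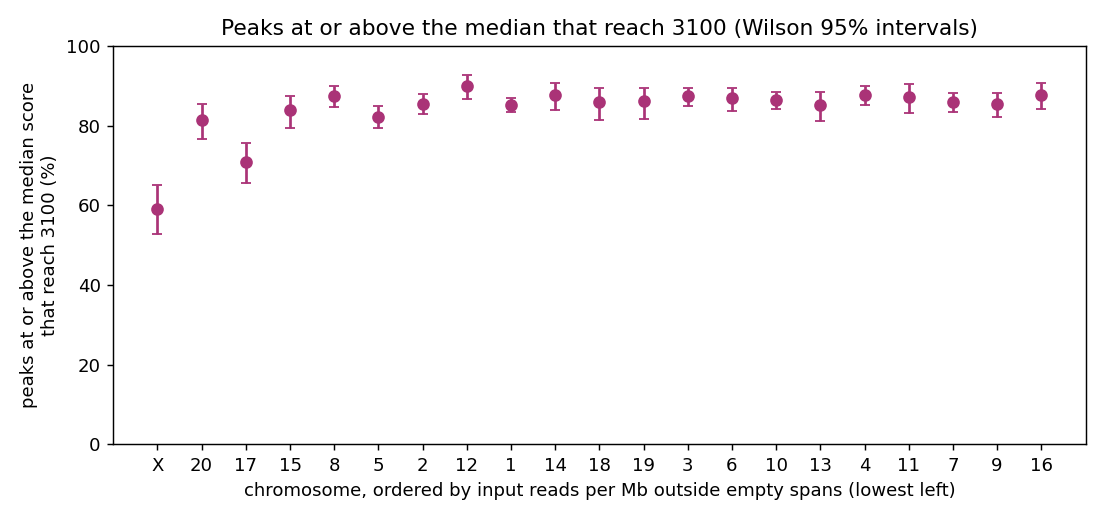
Percent of H3K4me3 peaks at or above the median score that reach 3100, per chromosome, with Wilson 95% intervals as bars and chromosomes ordered from lowest to highest input reads per Mb outside the empty spans. X (59.2%) and chromosome 17 (71.0%) lie below the others, which range from 81.5% to 90.0%.

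The low share on chromosome 17 was uneven along it. In windows of 20 Mb, 87.3% of 102 peaks at or above the median reached 3100 from 0 to 20 Mb, 79.7% of 59 from 20 to 40 Mb, 53.8% of 93 (43.7% to 63.5%) from 40 to 60 Mb and 76.9% of 39 from 60 to 80 Mb. Beyond 80 Mb 4 of 17 did. Of 135 autosomal windows with 20 or more such peaks, the one from 40 to 60 Mb had the lowest share, ahead of 70.5% at the start of chromosome 1, and the median window had 86.5%. The 1 Mb from 58 to 59 Mb held 19 middle peaks among 44, and no other 1 Mb window held more than 9. Without it the share was 63.6% (42 of 66 peaks, 51.6% to 74.2%) from 40 to 60 Mb and 74.9% (212 of 283, 69.6% to 79.6%) on the whole chromosome, still below the other windows with 20 or more such peaks and the other autosomes. The interval of the window then took in the 70.5% of the start of chromosome 1. These windows were singled out after their values were seen.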

How the data were processed

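The H3K4me3 peaks were deposited by the authors as 1 list for 1 library, with a start, an end and a score per peak, and per the file headers the input was deposited as raw read counts per chromosome by strand and mismatch. MACS, a program that calls peaks, appears in the names of the peaks, and CASAVA 1.8 and rn5 appear in the submitters' processing notes. Not given in the sources used here are the settings and control of the peak calling, the aligner and the scale of the score. The depth of the H3K4me3 library was not used here. Peaks were read as intervals counted from 0. Gaps are edge to edge. Score groups, spacing, close pairs and densities were computed in Python 3.11.15 with pandas 2.3.3 and scipy 1.17.1, and the interval functions were tested on simulated lists. No hypothesis test was run, since each antibody has 1 library. Regions were named by rank: the 5 widest upper and lower peaks, the 5 highest scores, the 3 closest upper pairs, the 5 longest runs and spans, and the 3 autosomes with most and fewest peaks per input read, with ties by position. The members, groups and rules were chosen with earlier results of these data known. No sequence is printed, since a genome of the files' build was not used here.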

Additional observations from a re-analysis of the deposited data

How the results depend on the processing

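With 1 library per antibody, the limits are those of the peak calls: no read signal was used, the score ties 9687 peaks, and chromosome lengths are stand-ins. Upper peaks stayed wider than lower peaks, and less often close to a neighbour, under each alternative run for these results. Of 64 alternatives, 16 left a value inside its counting interval (or rho within 0.005) and 48 moved it, in part because they redefine the groups or distances. No alternative turned the sign of a correlation. No paired analysis was possible because the labels give no replicate numbers.

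With peaks under a score of 100 left out, the share at 3100 or more was 48.2%, the nearest gap 20070 bp for upper and 20291 bp for lower peaks, and the share with a neighbour within 1 kb 7.02% and 12.0%. With the groups divided at a score of 1000, median widths were 2170 and 848 bp, and close pairs were 18.8% upper, 48.6% mixed and 32.7% lower. The lowest quartile of score had a median width of 690 bp. Joining peaks over gaps of up to 500 bp gave widths of 2431 and 944 bp and nearest gaps of 19655 and 21931 bp. Between centres the nearest distance was 19833 bp for upper and 17946 bp for lower peaks. A neighbour lay within 500 bp of 6.63% and 12.4% of upper and lower peaks, and within 2 kb of 12.9% and 20.03%. Pairs of upper peaks were 6.30% of those within 500 bp and 9.14% of those within 2 kb.

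For density against input, rho for all, upper and lower peaks was 0.226, 0.305 and 0.164 with all aligned reads, 0.348, 0.406 and 0.332 with X included, 0.189, 0.340 and 0.0815 without chromosomes 9 and 16, and 0.266, 0.338 and 0.259 with base pairs in place of peaks. With the mean of the 4 inputs it was 0.253 for all peaks. Without the empty spans, an alternative added after the data had been seen, it was 0.0707, 0.165 and 0.104. For the share that reached 3100, also added later, rho was 0.332 without chromosome 17, 0.50 with X and 0.441 without the empty spans. When an overlap had to cover 0.5 of the narrower peak, H3K4me1 met 77.8% of upper and 64.5% of lower peaks and H3K9me3 1.8% and 3.97%, while SOX9 met 23.3% and 22.0%, and SOX6 27.5% and 25.4%, the latter with intervals apart (26.6% to 28.4% and 24.6% to 26.2%).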

Other observations

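The other deposited lists were read at the H3K4me3 peaks, as shares that overlap a peak of another list by at least 1 bp. H3K27ac, a mark of active promoters and enhancers, overlapped 99.4% of upper peaks (99.2% to 99.5%), 92.3% of middle and 72.4% of lower peaks (71.6% to 73.2%). Only 12 of 9833 upper peaks had neither H3K27ac nor H3K4me1, compared with 1804 of 11558 lower peaks (15.6%). H3K4me1, a mark mainly of enhancers and of the flanks of promoters, overlapped 90.1% of upper and 69.6% of lower peaks. H3K9me3, a mark of heterochromatin, overlapped 2.66% (2.36% to 3.002%) and 4.67% (4.30% to 5.07%). The transcription factors SOX9 and SOX6, taken singly, were present at similar shares in both groups. SOX9 overlapped 23.5% of upper (22.7% to 24.4%) and 23.7% of lower peaks (22.9% to 24.5%), and SOX6 27.7% (26.9% to 28.6%) and 27.4% (26.6% to 28.3%). Among upper peaks of 4 kb or wider the shares were 57.7% for SOX9 and 66.4% for SOX6. A peak of either factor was present at 38.6% of upper (37.6% to 39.5%) and 32.6% of lower peaks (31.8% to 33.5%). Wider peaks have more room for an overlap, and the part of width in these shares was not tested.

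Some marks differed in frequency between lower peaks beside an upper peak and those far from one. Among the 612 within 1 kb, H3K4me1 was present at 84.0% (80.9% to 86.7%), and 24.3% (21.1% to 27.9%) had H3K4me1 without H3K27ac. Among the 4192 more than 100 kb away, H3K4me1 was present at 59.1% (57.6% to 60.6%), 12.0% had it without H3K27ac and 22.4% (21.1% to 23.7%) had neither mark. SOX9 was less frequent beside upper peaks, at 14.5% (12.0% to 17.6%), than beyond 100 kb, at 21.2% (20.02% to 22.5%). For SOX6 the shares were 20.8% (17.7% to 24.1%) and 24.2% (23.0% to 25.6%), and for H3K27ac 68.8% (65.0% to 72.3%) and 65.6% (64.2% to 67.0%), with intervals that overlap. Over all lower peaks the shares were 23.7% for SOX9, 27.4% for SOX6 and 72.4% for H3K27ac, each above both of these sets. For SOX9, SOX6 and H3K27ac the difference between the sets is therefore not a steady trend with distance. For H3K4me1 the share over all lower peaks, 69.6%, lay between those of the sets. Shares at distances between 1 and 100 kb are not given here, so a trend of H3K4me1 with distance was not tested. The adjacent peaks are also narrower, at 743 bp against 896 bp.

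In the window of chromosome 17 from 40 to 60 Mb, H3K27ac peaks at or above their own median score reached 3100 in 33 of 119 cases, or 27.7%, against 37.9% over the whole H3K27ac list. From 20 to 40 Mb of the same chromosome the share was 25.6%, and beyond 80 Mb it was 7.02% (4 of 57), where 4 of 17 H3K4me3 peaks at or above the median reached 3100. In the other windows of chromosome 17 the H3K27ac share was 37.4% (0 to 20 Mb) and 33.3% (60 to 80 Mb). In the first 20 Mb of chromosome 1, with 70.5% for H3K4me3, the H3K27ac share was 18.8%. Low H3K27ac shares also occurred where the H3K4me3 share was not low. Examples are chromosome 8 from 0 to 20 Mb (23.2%, with 90.0% for H3K4me3) and chromosome 6 from 60 to 80 Mb (23.9%, with 87.2%).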
